A study of Mus musculus with 6 samples.

Results

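First intron regions were defined here as stretches of H3K27ac that lie in the first intron of a protein-coding gene and away from any promoter. The deposited peaks of the 4 H3K27ac libraries were merged wherever they overlapped by 1 bp or more, which gave 182956 regions. Of these, 33485 were called in at least 2 of the 4 lists. A region was kept when it was called in 2 or more lists, lay more than 3 kb from every transcription start site (TSS) that GENCODE annotates on mm10, overlapped no exon, and had its midpoint in the first intron of a protein-coding transcript. This left 3601 regions, 10.8% of those called in 2 or more lists, in 1531 genes. The regions were thus selected on the peak calls themselves, so the number of lists per region describes the choice and is no result.

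The data were H3K27ac ChIP-seq of B16 F10 cells, a mouse melanoma line that makes melanin, taken on day 5 of the progressive pigmentation model, in which cells seeded at 100 per cm2 gain pigment over time. LP (low pigment) and HP (high pigment) cells were sorted from that culture by side scatter, a flow cytometry measure that rises with melanin, so both populations share the line, the medium and the day, and the labels name no treatment of either. Each population had 2 replicates, and for each replicate number an IgG library of unsorted cells served the authors as the control for peak calling. All 4 libraries come from 1 line, and nothing in the labels says that the replicates were separate cultures, so the p-values below measure the spread between these samples. The comparison asks where the mark differs between the low and the high pigment state.

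H3K27 acetylation marks active promoters and active enhancers, and away from promoters it is the usual sign of an enhancer in use. The first intron of a gene is often its longest, and many enhancers lie there, close to the promoter along the DNA. In pigment cells the best known case is Mitf, the master transcription factor of the melanocyte lineage, whose gene has several alternative promoters far apart, so that promoters of its short isoforms lie within introns of the long ones.

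The LP libraries held 11467942 and 15353176 fragments in replicates 1 and 2, and the HP libraries held 11483830 and 14254904. A region's value in a library was its highest summit pileup, the count of fragments over that summit, divided by the library's fragments and multiplied by 1000000 (scaled pileup). Pileups here were low, with a median of 9 and 13 fragments in LP against 12 and 16 in HP over the called first intron regions, so a single region carries a large counting error. A library that did not call a region has no value for it in the lists. All 7 melanocyte marker genes had a promoter peak in every library, none of the 4 keratinocyte markers had one in any, and immune, endothelial and fibroblast markers had at most 1 of 4, 1 of 3 and 1 of 3.

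The sequences of 6 regions show the kind of sequence behind these calls, each as the 201 bases around its highest summit, read from the plus strand of the RefSeq GRCm38.p6 genome, which is mm10. They are the 3 with the smallest p for HP against LP (Slco3a1, Zfhx3 and Bcl2), the highest one called in both HP and neither LP (Igfbp7), the highest one called in both LP and neither HP (Slc35b4), and the Mitf region with the smallest p. Capitals mark a match, on either strand, to one of the 9 motifs listed further on, or a run of at least 10 CA repeats.
Slco3a1, chr7:74511987-74512187: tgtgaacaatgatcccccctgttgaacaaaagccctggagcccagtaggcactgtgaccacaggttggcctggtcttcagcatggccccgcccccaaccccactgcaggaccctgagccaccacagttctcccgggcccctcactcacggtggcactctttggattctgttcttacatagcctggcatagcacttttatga
Zfhx3, chr8:108756045-108756245: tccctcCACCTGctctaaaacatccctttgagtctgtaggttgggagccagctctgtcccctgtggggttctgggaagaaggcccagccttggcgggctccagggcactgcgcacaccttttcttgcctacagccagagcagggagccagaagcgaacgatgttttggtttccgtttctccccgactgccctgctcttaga
Bcl2, chr1:106700856-106701056: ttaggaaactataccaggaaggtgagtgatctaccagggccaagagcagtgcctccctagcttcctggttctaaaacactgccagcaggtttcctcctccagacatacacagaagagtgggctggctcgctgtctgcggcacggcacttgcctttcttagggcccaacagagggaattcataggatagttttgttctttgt
Igfbp7, chr5:77373305-77373505: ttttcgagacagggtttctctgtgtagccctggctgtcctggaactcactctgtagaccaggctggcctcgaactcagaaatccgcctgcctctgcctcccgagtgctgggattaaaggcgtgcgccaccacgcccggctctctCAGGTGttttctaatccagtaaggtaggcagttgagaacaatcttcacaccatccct
Slc35b4, chr6:34173558-34173758: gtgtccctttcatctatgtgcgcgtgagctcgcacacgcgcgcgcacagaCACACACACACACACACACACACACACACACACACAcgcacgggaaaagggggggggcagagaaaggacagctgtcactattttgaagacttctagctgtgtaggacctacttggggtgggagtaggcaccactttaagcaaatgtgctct
Mitf, chr6:97883076-97883276: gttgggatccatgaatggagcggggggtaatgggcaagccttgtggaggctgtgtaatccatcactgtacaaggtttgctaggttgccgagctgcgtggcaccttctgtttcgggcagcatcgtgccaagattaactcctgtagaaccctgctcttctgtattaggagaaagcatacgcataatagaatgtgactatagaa
Only 2 of the 6 windows held a listed motif, a CACCTG in Zfhx3 and, on the minus strand, in Igfbp7. The windows also differed in repeats: the genome masks 0% of the bases in Slco3a1, Zfhx3 and Mitf, 8.46% in Bcl2, 42.8% in Slc35b4 and 72.6% in Igfbp7. The Slc35b4 window held a run of 36 bases of CA repeat, which began 50 bp before the summit and did not reach it.

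First intron regions were called more often in HP than in LP. LP replicate 1 called 958 of the 3601 and LP replicate 2 called 2116, whereas HP replicate 1 called 2827 and HP replicate 2 called 3233. These were 26.6%, 58.8%, 78.5% and 89.8%, and of all regions in 2 or more lists the same libraries called 46.8%, 70.1%, 83.2% and 92.9%, in the same order. In all, 1100 (30.5%) were called in both HP libraries and in neither LP library, against 21.5% of all regions in 2 or more lists. The opposite pattern, both LP and neither HP, held for 62 (1.72%), against 1.36% of all regions. More HP than LP lists called 56.8% of first intron regions (41.3% of all regions), and more LP than HP lists called 2.69% (2.29% of all regions).

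More calls in HP were seen in each replicate set, but the sets are not independent of each other. The rule asks for 2 lists, so the 1100 regions called in both HP and neither LP count in both sets. Regions that met every other criterion but were called in 1 list only numbered 4029 and 4773 in LP against 3999 and 5150 in HP. In replicate 1, 2056 first intron regions were called in HP and not in LP and 187 the other way, and in replicate 2 the counts were 1377 and 260. As shares of the first intron regions these were 57.1% and 5.19%, then 38.2% and 7.22%, beside 40.8% and 4.35%, then 27.5% and 4.76%, of all regions in 2 or more lists. Averaged over the replicate numbers, that is with the pairing kept, 1716.5 regions were called in HP and not in the LP of the same number, and 223.5 the other way. Without LP replicate 2, the number called in both HP and no remaining LP library was 1865, and without LP replicate 1 it was 1280. Only 476 (13.2%) of first intron regions were called in all 4 lists, against 36.1% of all regions.

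**Figure D1:**
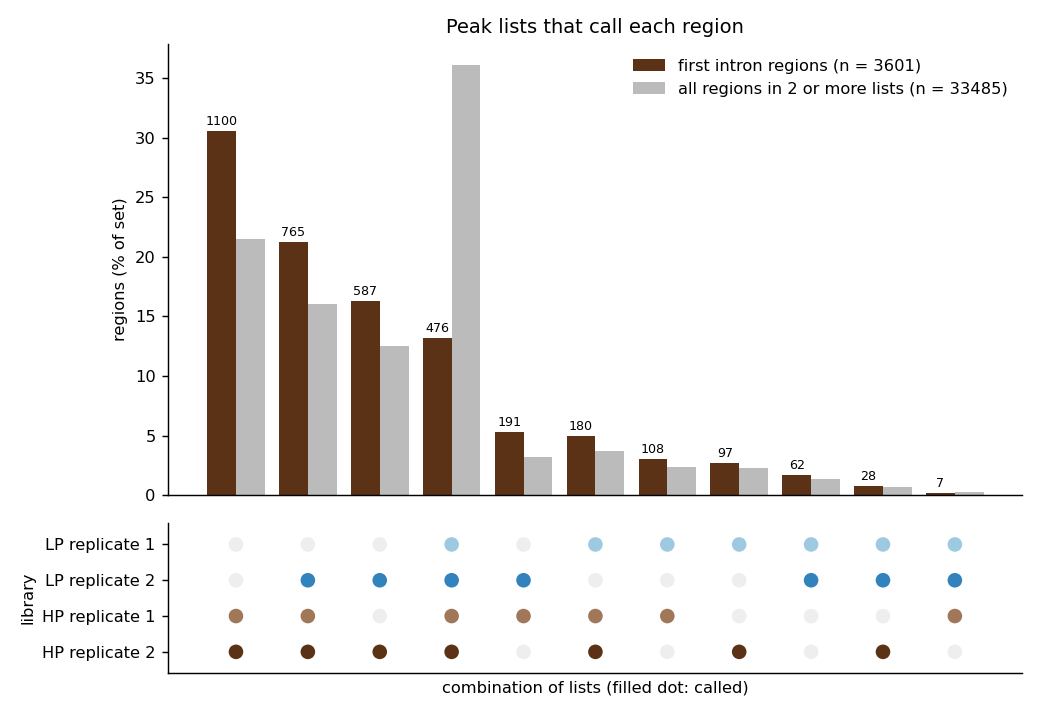
Share of regions (%, y axis) by the combination of lists that call them (filled dots, x axis), for the 3601 first intron regions (brown, with counts) and all 33485 regions in 2 or more lists (grey). The most frequent combination among first intron regions was both HP and neither LP (1100), and among all regions it was all 4 lists.

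These shares were close to those of other regions away from promoters. Regions in later introns were called in both HP and neither LP in 32.2% of 3962 cases and intergenic regions in 30.7% of 5618, and promoter regions, those within 3 kb of a TSS, in 13.7% of 18115. Calls in all 4 lists made up 9.87% of later intron regions, 14.9% of intergenic ones and 55.6% of promoter ones. In these counts first introns were nearer to the other distal classes than to promoters, and differences between these shares were not tested.

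Where all 4 libraries gave a value, levels could be compared. Over the 476 first intron regions called in all 4 lists, the median scaled pileup was 0.959 and 1.11 per 1000000 in LP replicates 1 and 2, against 1.74 and 2.74 for HP. Both HP medians lay above both LP medians. By limma, fitted on all 12084 regions called in all 4 lists, 46 of the 476 (9.66%) were higher in HP (p at most 0.05 after Benjamini-Hochberg adjustment), against 4.01% of all regions tested. Later introns had 9.21%, intergenic regions 7.64% and promoters 3.10%, so the share was near that of the other distal classes. No first intron region was lower (0% of all regions). At an unadjusted p under 0.05 limma gave 248 higher (52.1%, against 48.3% of later intron, 49.8% of intergenic and 36.2% of all regions) and 0 lower (0% of all regions). With the replicate number as a block, 12 of the 46 remained, against 0.728% of all regions.

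The log2 ratio between HP and LP had a median of 1.09 over the first intron regions, 1.03 over later introns, 1.06 over intergenic regions, 0.90 over promoters and 0.92 over all regions tested. Both HP values lay above both LP values in 372 of the 476 (78.2%, against 78.5% of later intron, 78.8% of intergenic and 74.8% of all regions). They lay below both LP values in 2 (0.141% of all regions). In replicate set 1 the median was 0.83 and in set 2 it was 1.27. No spike-in is named in the labels or the methods, so a shift shared by all regions rests on the scaling to total fragments, and more marked cells cannot be told apart from more of the mark per cell. Centring each library on its own median moved the median of all regions to -0.087 and that of first intron regions to 0.081, and then no first intron region passed by limma. At an unadjusted p under 0.05, the centred values gave 21 higher (1.46% of all regions) and 18 lower (2.28% of all regions), and 271 of the 476 were above 0. The 46 calls also depended on single libraries, with 312 calls when HP replicate 1 was left out and none when LP replicate 1, LP replicate 2 or HP replicate 2 was left out.

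**Figure D2:**
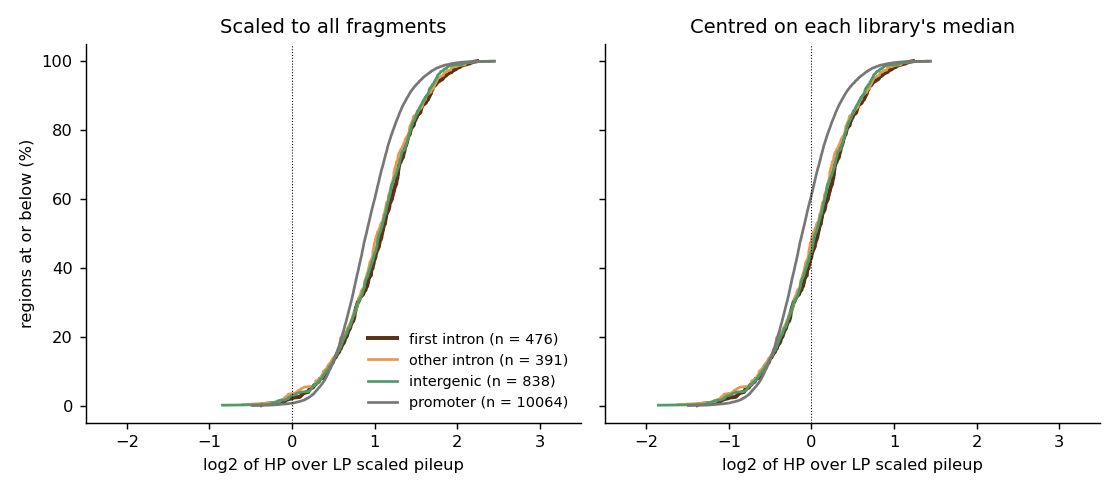
Cumulative share of regions (%, y axis) by the log2 ratio of HP to LP scaled pileup (x axis) for regions called in all 4 lists, by where they lie, with libraries scaled to all fragments (left) or centred on their medians (right). The curve of first introns (brown) runs with those of later introns and intergenic regions, with medians of 1.09, 1.03 and 1.06, to the right of promoters (0.90), and centring brings its median to 0.081.

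The 8 first intron regions with the smallest p were each higher in both HP libraries than in both LP libraries. The first lay in Slco3a1, an organic anion transporter, at chr7:74509537-74512393 and 41629 bp from the start of its host transcript. Its edge lay 5202 bp from the nearest annotated TSS. Its scaled pileup was 0.523 and 0.912 in LP against 2.18 and 4.91 in HP. The log2 ratio was 2.24 (SE 0.54, n = 2 per population), with a limma adjusted p of 0.0329 and 0.0468 with the replicate block. The pooled variance gave all regions this SE. HP replicate 2 was the highest library and LP replicate 1 the lowest.

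The region in Zfhx3, a zinc finger homeobox transcription factor, at chr8:108754411-108756552, had 0.436 and 1.04 in LP against 1.65 and 5.75 in HP. Its log2 ratio was 2.19 (limma adjusted p = 0.0329). The populations did not overlap, although HP replicate 1 stood nearer to LP than to HP replicate 2. Bcl2, the founding inhibitor of apoptosis and a known target of MITF in melanocytes, held the third region at chr1:106699464-106702118, with 0.785 and 0.521 in LP against 2.87 and 2.88 in HP. Its log2 ratio was 2.17 (limma adjusted p = 0.0329), and its HP replicates nearly coincided.

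The other 5 of these 8 lay in 2 genes known by code names and in 3 named ones. In Gm17359, at chr3:79364217-79366329, LP gave 0.523 and 2.21 and HP gave 4.35 and 5.26, with a log2 ratio of 2.15 (limma adjusted p = 0.0332). All bases around its summit were masked as repeats. In Nceh1, a cholesterol ester hydrolase, at chr3:27209002-27210077, LP gave 0.872 and 0.977 and HP gave 2.26 and 7.09, with a log2 ratio of 2.12 (limma adjusted p = 0.0332). Here HP replicate 2 stood well above the other libraries.

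In C530008M17Rik, at chr5:76701389-76703561, LP gave 0.698 and 0.651 and HP gave 1.83 and 4.49, with a log2 ratio of 2.09 (limma adjusted p = 0.0332). In Trim71, an RNA-binding ubiquitin ligase, at chr9:114526598-114528496, LP gave 0.785 and 0.521 and HP gave 1.83 and 3.86, with a log2 ratio of 2.05 (limma adjusted p = 0.0340). In St6gal1, a sialyltransferase of the Golgi, at chr16:23239413-23241587, LP gave 0.523 and 1.56 and HP gave 3.13 and 4.42, with a log2 ratio of 2.04 (limma adjusted p = 0.0351). In each of these 3 the populations were separate and HP replicate 2 was the highest library.

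**Figure D3:**
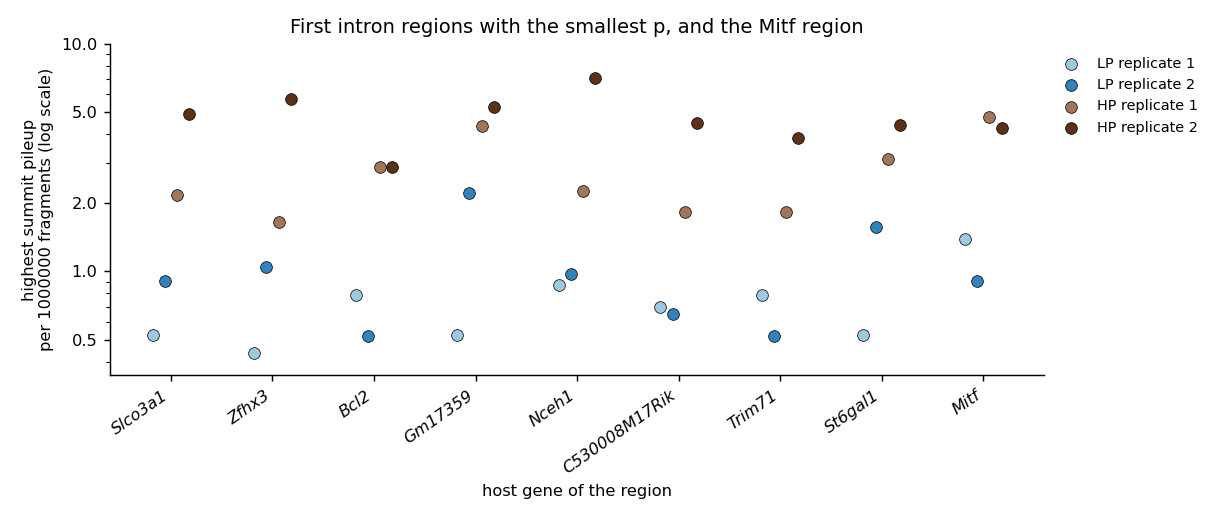
Highest summit pileup per 1000000 fragments (log scale, y axis) in each library for the 8 first intron regions with the smallest p and for the Mitf region (host gene, x axis). In each of the 9 regions both HP points (brown) lie above both LP points (blue), with log2 ratios from 2.00 to 2.24.

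Of the first intron regions called in both HP and neither LP, the 6 with the highest mean scaled pileup lay in Igfbp7, Abl1, Banp, Myof, Gramd4 and Pacsin2. Igfbp7, a secreted binding protein of insulin-like growth factors, had 31 and 63 fragments in HP, or 2.70 and 4.42 per 1000000, at chr5:77373075-77373848. Abl1, a tyrosine kinase, had 2.35 and 4.07 at chr2:31768859-31770371. Banp, a DNA-binding nuclear protein, had 2.53 and 3.16 at chr8:121964259-121964927.

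These 3 regions were chosen for their high pileup, and so stood above the median of the called first intron regions. That median was 1.04 and 1.12 in the HP replicates. Myof, which encodes the membrane repair protein myoferlin, had 1.83 and 3.79 at chr19:38024425-38026704. Gramd4 had 1.92 and 3.58 at chr15:86085775-86087022. Pacsin2, a membrane-bending protein of endocytosis, had 2.26 and 3.23 at chr15:83409779-83411073. In all 6, HP replicate 2 was above HP replicate 1.

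The 62 regions called in both LP and neither HP were narrow. Their median width was 405 bp, against 566.5 bp for the 1100 called in both HP and neither LP. It was 500 bp for all first intron regions called in 2 lists. Merged regions were wider with more lists, 951.5 bp with 3 and 1706 bp with 4, and the median of all first intron regions was 667 bp. The 6 with the highest mean lay in Slc35b4, Bicra, Ctdspl, Vgll4, Lamc1 and Gpr176. Slc35b4, a transporter of nucleotide sugars, had 22 and 9 fragments, or 1.92 and 0.586 per 1000000, at chr6:34173388-34173808. Bicra, a subunit of a SWI/SNF chromatin remodelling complex, had 1.05 and 0.847 at chr7:16021900-16022202.

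LP replicate 1 was the higher library in both. Ctdspl, a phosphatase, had 0.872 and 0.912 at chr9:119000726-119001082. Vgll4, a cofactor of TEAD transcription factors, had 0.610 and 1.17 at chr6:114914402-114914685. Lamc1, the laminin gamma 1 chain of basement membranes, at chr1:153294283-153294797 and Gpr176, an orphan receptor, at chr2:118364840-118365337 each had 0.698 and 1.04. LP replicate 2 was the higher library in 4 of the 6.

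The regions were spread unevenly over genes. Of the 1531 host genes, 773 held 1 first intron region, 433 held 3 or more, 170 held 5 or more and 29 held 10 or more. The 170 genes with 5 or more held 1316 regions, 36.5% of all. HP called more of their regions than LP in 165 of the 170 genes and LP more in 3. These tallies sum the calls of 5 or more regions per gene, so they cannot be set beside shares of single regions. Among single regions, 56.8% of first intron ones and 41.3% of all had more HP calls. More LP calls were had by 2.69% and 2.29%. Whether the tallies go beyond these shares was not tested. HP was above LP in both replicate sets in 135 of the 170 genes, in 162 in set 1 and in 138 in set 2.

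The gene with the most regions, Gm20388 at chr8:119910841-124345722, is annotated as a readthrough transcript whose first intron spans 4384418 bp and many other genes, among them Gse1 and Banp. It held 94 regions, of which LP called 28 and 48 and HP called 86 and 83, and for 52 of them it was the only host. Without readthrough transcripts, an alternative chosen after seeing the data, 3541 first intron regions were left.

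Ptprj, a receptor tyrosine phosphatase that restrains growth signals, came next with 26 regions. LP called 6 and 18 of them and HP called 21 and 25. Together they covered 29.5% of its first intron of 106497 bp. Of the 26, 7 were called in both HP and neither LP and none the other way, beside 30.5% and 1.72% of all first intron regions. In the 5 called in all 4 lists, the log2 ratio ran from 0.80 to 1.48, with a median of 1.28, and none passed. The local background that the lists imply was 1.09 and 2.32 fragments at Ptprj in LP against 1.62 and 1.84 in HP, against medians of 0.860, 1.73, 1.03 and 1.47 over the first intron regions, and its part in the number of calls was not tested.

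Gse1, a nuclear protein of histone deacetylase complexes, held 20 regions, called in 7 and 13 of the LP and 17 and 18 of the HP libraries. Rapgef2, an exchange factor for the small GTPase Rap1, held 16, of which LP called 4 and 8 and HP called 12 and 15. Trio, a guanine nucleotide exchange factor, held 15, with 4 and 11 calls in LP against 12 and 15 in HP. In these 3 genes every HP library called more regions than either LP library.

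The formins Fmn1 and Fmnl2, which build unbranched actin filaments, came next with 15 and 14 regions. Fmn1 was called 5 and 8 times in LP and 13 and 15 times in HP, and Fmnl2 7 and 10 times in LP against 14 and 13 in HP. Both formins had more calls in HP in each replicate set, while their regions called in all 4 lists had median log2 ratios of 0.48 and 0.71, under the median of all regions.

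Maml3 and Maml2, mastermind-like coactivators of Notch, held 14 regions each. In Maml3, LP called 5 and 11 and HP called 13 and 10, so HP was above LP in replicate set 1 and below it in set 2. In Maml2, LP called 3 and 6 and HP called 10 and 12. Usp6nl, an activator of GTP hydrolysis by Rab5, also held 14, called 4 and 9 times in LP and 11 and 14 times in HP. Of the 3 regions of Maml3 in all 4 lists, 1 passed (log2 ratio 1.84, limma adjusted p = 0.0420, and 0.0552 with the replicate block), and the 3 had a median log2 ratio of 1.58.

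**Figure D4:**
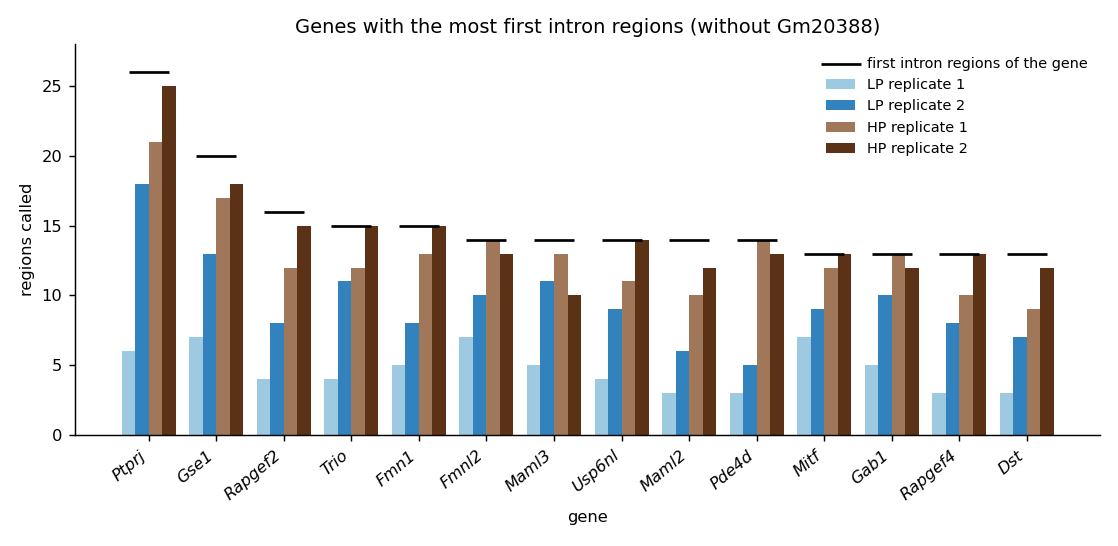
Number of first intron regions called in each library (bars, y axis from 0) for the 14 genes with the most of them after Gm20388 (x axis), with the black line at the gene's total. HP replicate 1 and HP replicate 2 called more regions than LP replicate 1 in all 14, and LP replicate 2 called more than HP replicate 2 only in Maml3 (11 and 10).

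Counted per length of first intron, other genes led. Among genes with 3 or more regions, Atp6v1a, the catalytic subunit of the vacuolar proton pump that acidifies lysosomes and melanosomes, had 8 regions or 35.4 per 100 kb. LP called 0 and 3 of them and HP called 6 and 8, and 5 were called in both HP and neither LP (30.5% of all first intron regions). Alkbh5, an RNA demethylase, had 3 (35.3 per 100 kb), Farsb, a subunit of phenylalanyl-tRNA synthetase, had 3 (34.6 per 100 kb), Kif21b, a kinesin, had 4 (31.2 per 100 kb) and Camsap3, which binds microtubule minus ends, had 3 (30.4 per 100 kb). Of these only Kif21b had regions in all 4 lists, 2 of its 4, with log2 ratios of 1.22 and 1.38, and its regions covered 68.3% of the intron.

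Most host genes also carried the mark at their promoter. A region within 1 kb of a TSS of the gene and called in all 4 lists was present in 1189 of the 1531 host genes (77.7%), against 44.3% of all protein-coding genes. The share was 81.6% of the 717 genes with a region called in both HP and neither LP and 93.5% of the 170 genes with 5 or more regions. For 408 first intron regions in 289 genes, region and promoter were both called in all 4 lists, so that their ratio could be taken within a library, where the scaling cancels.

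First intron regions were lower than their promoter. The promoter was the region of highest mean pileup among those within 1 kb of a TSS of the gene. Where a gene has several such regions, this choice lowers the ratio. The median log2 ratio of region to promoter was -2.08 and -1.77 in LP, and HP gave -1.82 and -1.61, that is 23.7% and 29.4% of the promoter pileup in LP and 28.3% and 32.7% in HP. LP replicate 1 was the lowest and HP replicate 2 the highest, and LP replicate 2 lay above HP replicate 1, so the populations overlapped. The mean of HP exceeded that of LP by 0.21, with an exact two-sided permutation p of 0.667 over the 4 libraries, where the smallest possible p is 0.333. The difference was 0.26 in replicate set 1 and 0.15 in set 2, and 0.05 without LP replicate 1.

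**Figure D5:**
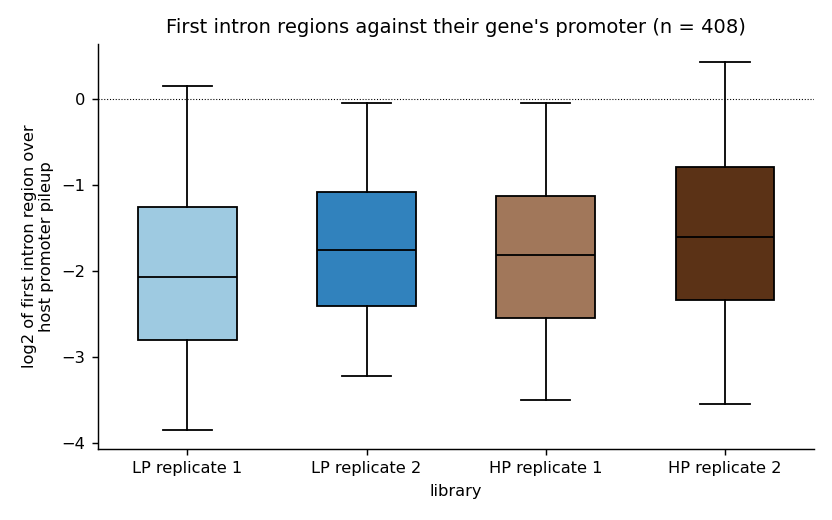
Log2 ratio of first intron region to host promoter pileup (y axis) in each library (x axis) for the 408 regions where both were called in all 4 lists; the line is the median, the box the quartiles and the whiskers the 5th and 95th percentiles. The medians run from -2.08 in LP replicate 1 to -1.61 in HP replicate 2, and the boxes of the 4 libraries overlap.

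The highest first intron regions did not belong to pigment genes. A pair of neighbouring regions in Tmem267, at chr13:119595679-119600558 and chr13:119600998-119603439, reached 14.0 and 20.6 in LP against 15.9 and 32.9 in HP, and 4.88 and 15.6 in LP against 10.9 and 19.1 in HP. The local background at the summit of the first was 61.9 and 157 fragments in LP against 25.7 and 108 in HP, and at the second it was 26.4 and 30.5 in LP against 44.2 and 23.9 in HP, far above the medians of 0.860 to 1.73 over the first intron regions. All bases around the summit of the first were masked as repeats, and 48.8% around that of the second. Neither passed by limma (log2 ratios of 0.43 and 0.73), and in both LP replicate 2 lay above HP replicate 1. Arhgef10l, a guanine nucleotide exchange factor, had 5.76 and 4.88 in LP against 6.97 and 18.7 in HP at chr4:140656491-140659202, and Def8, which acts in the placing of lysosomes, had 3.75 and 6.06 in LP against 5.83 and 19.8 in HP at chr8:123432789-123434497. HP replicate 2 stood far above the other 3 libraries in both, with log2 ratios of 1.10 and 1.17 that did not pass.

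Genes of pigmentation were represented by a minority of the list. Of 32 pigmentation genes, 10 held 39 first intron regions. Both HP libraries and neither LP library called 11 of these (28.2%), and none went the other way. Over all first intron regions these shares were 30.5% and 1.72%, and 9.66% of those in all 4 lists passed by limma. Counts in this list and in the next ones stand beside these shares, and differences from them were not tested. Of the 6 pigmentation regions called in all 4 lists, 1 passed by limma. The median log2 ratio of the 6 was 1.05, under the 1.09 of all first intron regions tested, and 0.92 over all regions tested. The 6 were 5 regions of Mitf and 1 of Atp7a, the copper transporter that supplies tyrosinase, which had 0.872 and 0.586 in LP against 0.697 and 1.05 in HP (log2 ratio 0.26). The populations overlapped at Atp7a.

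The Mitf region that passed, at chr6:97882815-97883672 and 76185 bp from the start of its host transcript, had 1.40 and 0.912 in LP against 4.79 and 4.28 in HP. Its edge lay 6867 bp from the nearest annotated TSS. Its log2 ratio was 2.00, with a limma adjusted p of 0.0358 and 0.0492 with the replicate block, and both HP libraries stood apart from both LP libraries. Its neighbour at chr6:97884448-97886356 had 1.48 and 1.30 in LP against 1.74 and 1.47 in HP, with a log2 ratio of 0.20. The other 3 Mitf regions in all 4 lists had log2 ratios of 1.01, 1.08 and 1.14 and did not pass. Mitf held 13 first intron regions in all, called 7 and 9 times in LP and 12 and 13 times in HP.

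Among melanocyte transcription factors, 7 of 21 genes held 40 regions, 13 of them (32.5%) called in both HP and neither LP and none the other way. One of the 8 called in all 4 lists passed, the Mitf region above, and their median log2 ratio was 1.11, beside 1.09 over all first intron regions tested. Sox5, a SOX factor of the neural crest, had 2.01 and 1.17 in LP against 3.22 and 4.28 in HP (log2 ratio 1.28). Ets1 had 0.610 and 0.912 in LP against 1.39 and 2.46 in HP (1.31), and Zeb2, which is needed for melanocyte differentiation, had 0.872 and 0.782 in LP against 1.22 and 1.12 in HP (0.50). In all 3 both HP libraries were higher, and none of the 3 passed.

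Of 35 genes of cAMP signalling, the pathway through which melanocortin drives pigmentation, 13 held 46 regions. Both HP libraries and neither LP library called 14 of these (30.4%), and none went the other way. Of the 5 called in all 4 lists, 1 passed by limma, beside 9.66% of first intron regions tested. That one lay in Akap6, an anchor of protein kinase A, with 0.698 and 1.04 in LP against 2.09 and 4.21 in HP (log2 ratio 1.80, limma adjusted p = 0.0450, and 0.0586 with the replicate block). The second Akap6 region had a log2 ratio of 0.89, Akap1 had 1.16, Pde4d, a phosphodiesterase that breaks down cAMP, had 1.46, and Prkar2b, a regulatory subunit of protein kinase A, had 0.23. The median of the 5 was 1.16, beside 1.09 over all first intron regions tested.

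Of 32 Wnt pathway genes, 7 held 16 regions, 9 of them (56.2%) called in both HP and neither LP and 1 the other way. The 1 region in all 4 lists, in the Wnt coreceptor Lrp6, had a log2 ratio of 0.81 and did not pass. Of 24 genes of MAPK feedback and ETS factors, 8 held 29 regions. Both HP libraries and neither LP library called 11 of these (37.9%), and 1 went the other way. None of the 3 in all 4 lists, 1 in Ets1 and 2 in Etv6 (log2 ratios of 1.20 and 1.22), passed. Limma gave these 3 an unadjusted p under 0.05, as it did 36.2% of all regions tested and 52.1% of first intron regions.

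Of 37 proliferation genes, 4 (Ccnd3, Cdk14, Cdk6 and E2f3) held 13 regions, with 2 (15.4%) called in both HP and neither LP and 1 the other way. The 3 in all 4 lists lay in Ccnd3, a D-type cyclin that drives entry into S phase. The first, at chr17:47511019-47512371, had 0.959 and 0.586 in LP against 1.74 and 3.44 in HP (log2 ratio 1.71, limma adjusted p = 0.0489, and 0.0621 with the replicate block). The other Ccnd3 regions had log2 ratios of 1.37 and 0.58 and did not pass.

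Of 26 genes of dedifferentiation and invasion, 10 held 31 regions, with 5 (16.1%) in both HP and neither LP and none the other way. Of the 5 in all 4 lists 2 passed, beside 9.66% of first intron regions tested. Tead1, a transcription factor of the Hippo pathway, had 0.959 and 1.56 in LP against 2.96 and 5.40 in HP at chr7:112720133-112721379 (log2 ratio 1.71, limma adjusted p = 0.0489, and 0.0621 with the replicate block), and its other regions had log2 ratios of 1.11 and 0.61. Smad3, a mediator of TGF-beta signals, had 1.05 and 1.11 in LP against 2.79 and 4.42 in HP (log2 ratio 1.71, limma adjusted p = 0.0490, and 0.0622 with the replicate block). Tgfb2 had a log2 ratio of 0.42.

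Of 27 chromatin writers and readers, 10 held 38 regions, with 8 (21.1%) in both HP and neither LP and 1 the other way. None of the 3 in all 4 lists passed by limma, while 2 had an unadjusted p under 0.05 (36.2% of all regions). One of the 3 lay in Arid1a, a SWI/SNF subunit, with 0.523 and 1.24 in LP against 1.13 and 3.30 in HP (log2 ratio 1.26), where LP replicate 2 lay above HP replicate 1. Over the 8 lists, the share of regions called in both HP and neither LP ran from 15.4% in proliferation and 16.1% in dedifferentiation to 56.2% in the Wnt pathway, beside 30.5% over all first intron regions.

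The regions lay well inside the introns. The median distance of the midpoint to the start of the host transcript was 18710 bp, in introns of a median 42532 bp. From the region's edge to the nearest annotated TSS, of any transcript, the median was 10144 bp. With the intron cut into 5 equal stretches in the direction of transcription, the stretch nearest to the start held 12.4% of the regions and the other 4 held 19.2% to 25.2%, and regions nearer than 3 kb to a TSS were left out by the rule. Calls in both HP and neither LP made up 28.1% in the stretch nearest to the start, 34.8% in the farthest and 29.2% to 30.7% in between. Chromosome 2 held the most, 417, or 13.9% of its 3000 regions in 2 or more lists. Chromosome 8 followed with 256, or 14.8% of its 1733, and there Gm20388 was the only host of 52.

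In sequence the regions were unlike promoters and like other distal regions. The median GC content of the 201 bases around the summit was 51.7%, the same as in later introns, against 52.7% between genes and 63.7% at promoters. At least 50% of these bases were masked as repeats in 16.4% of first intron regions, in 10.7% of those called in all 4 lists, in 16.3% of those called in both HP and neither LP and in 30.6% of the 62 called in both LP and neither HP. The last set also held more CA repeats, a run of at least 10 in 8.06% of its regions (5 of 62), against 2.00% (22 of 1100) in the set called in both HP and neither LP. Over regions of any kind, CA repeats stood in 2.42% (11 of 455) of those called in both LP and neither HP. The opposite pattern had 1.74% (125 of 7200). At least 50% of bases were masked in 24.4% and 15.3% of these 455 and 7200. The higher share of CA repeats in first introns thus rests on 5 regions and was not tested.

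Motifs were counted in the same windows, on both strands. TCATGTG, the M-box bound by MITF, was present in 3.39% of first intron regions, 4.49% of later intron regions and 2.39% of all regions in 2 or more lists, and TCACGTG, the E-box form, in 1.53%, 1.19% and 1.32%. At least one of them occurred in 4.80% of first intron regions, 5.55% of later intron regions and 3.66% of all regions. Among first intron regions it was 5.09% of those called in both HP and neither LP, 6.45% (4 of 62) of those called in both LP and neither HP and 5.46% of those called in all 4 lists. TGANTCA, bound by AP-1, stood in 6.72% (4.84% of all), GGAATG, bound by TEAD factors, in 10.9% (8.88%) and AACAAAG, bound by SOX factors, in 4.80% (3.45%). CTTTGAT, of LEF and TCF factors, was found in 2.44% (1.74%) and CACCTG, of ZEB and other E-box factors, in 16.7% (18.1%). Promoters made up 54.1% of all regions in 2 or more lists. In later intron and intergenic regions, TGANTCA stood in 6.46% and 6.93%, GGAATG in 10.4% and 10.9% and AACAAAG in 4.47% and 4.47%. For CTTTGAT these shares were 2.57% and 2.37%, and for CACCTG 17.2% and 17.2%. First intron regions were thus near the other distal classes, and differences were not tested.

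Motifs rich in G and C went the other way. GCCNNNGGC, bound by TFAP2 factors, was present in 8.64% of first intron regions and 16.1% of all regions, and CCGGAAG, bound by ETS factors, in 1.64% and 2.97%, while promoters held them in 22.0% and 3.90%. Later intron regions held them in 7.72% and 1.41%, and intergenic regions in 9.58% and 2.22%. GC content differed between these sets as given above, and its part in the motif shares was not tested. These 9 words do not contain one another, and a match is a run of letters and no proof of binding.

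At the edge of the rule, the 2 regions nearest to 3 kb from a TSS were in Rad23b (3002 bp), with 1.04 in LP replicate 2 and 0.702 in HP replicate 2, and in Bcl6 (3007 bp), with 0.871 and 0.912 in the HP replicates. The 2 that missed it by least were in Dagla (2996 bp), with 0.651 in LP replicate 2 and 0.912 in HP replicate 2, and in Med19 (2989 bp), with 0.912 and 0.631 in the same libraries. A further 17951 regions met every other criterion but were called in 1 list only, and the 4 lists shared them as 4029 and 4773 in LP against 3999 and 5150 in HP.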

How the data were processed

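H3K27ac was measured by ChIP-seq in 2 LP and 2 HP libraries, grouped by their labels. The authors trimmed the reads (Trimmomatic 0.33), aligned them to mm10 (Bowtie2 2.5.1) and ran MACS 3.0.0b1 for narrow peaks on each library at a q-value cutoff of 0.05, with the IgG of the matching replicate as control. The pileup signal in the authors' lists is the unscaled number of fragments over the summit. The fold enrichment, a ratio that the authors' caller took over the local background, and the authors' −log10 p-values and q-values were used only to describe or filter peaks. Columns of comparisons between populations were not used here.

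Pileups were scaled to 1000000 fragments, which rests on the fragment totals in the authors' MACS output. Regions came from merging the lists, and genes from GENCODE for GRCm38. The build was checked on 300 first exons, all of which matched. A region with several hosts was named by the shortest intron. HP was compared with LP by limma 3.58.1 (R 4.3.3) on log2 scaled pileup over the 12084 regions called in all 4 lists, with Benjamini-Hochberg adjustment and a threshold of 0.05. The main limma fit did not use the replicate numbers. Only the comparisons within replicate sets and the replicate block took them as pairs. The reason is that the labels give equal DNA within each replicate set and the methods sort both populations from a culture. The replicate differences of LP correlated with those of HP at 0.015 over all regions and at 0.075 over first intron regions. The block was an alternative, and its value is given beside each named call that it ended. Merging and the limma fit were tested on simulated data.

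Named were the 10 genes with the most regions, the 5 with the most per 100 kb among those with 3 or more, the 8 smallest limma p-values past the threshold, the 6 highest regions called in both libraries of only HP and only LP, genes of the 8 lists with a region in all 4 lists, the 4 highest regions, and 2 on each side of the 3 kb limit. A gene that these rules would name is not reported here. The members, lists and rules were chosen with earlier results of these data known. Alternatives were stricter q-values, lists of equal size, a 50% overlap, other distances, transcripts and list numbers, other scalings, and leaving out libraries. Software was numpy 2.4.6, pandas 2.3.3, matplotlib 3.10.9, statsmodels 0.14.6, scipy 1.17.1, pysam 0.24.0 and samtools 1.23.1 under Python 3.11.15.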

Additional observations from a re-analysis of the deposited data

How the results depend on the processing

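Stricter peaks, other overlaps and other scalings moved the counts by limma most. Of 46 regions higher in HP, 29 were called with q-values of at most 0.01, 1 at 0.001, 16 with 0.1 added before the log and 12 with the replicate block. By limma none was called with an overlap of 50% of both peaks, from mean summit pileups, with fragments times fragment length, after centring (with or without the replicate block) or after quantile normalization, where limma without adjustment (p under 0.05) gave 38, 189, 239, 21, 22 and 29 higher. Leaving out 1 library gave 0 to 312. At the same unadjusted p, 18 were lower after centring, with or without the block, 9 after quantile normalization and 0 in the other 3. After adjustment none was lower in HP by limma in any of these. The median log2 ratio was 0.081 after centring, with or without the replicate block, 0.10 after quantile normalization, and 0.76 to 1.44 without 1 library or replicate number. Counts with libraries left out kept the first intron regions as defined on all 4 lists. Called in both HP and no remaining LP library were 1280 without LP replicate 1 and 1865 without LP replicate 2. Without either HP library the number is fixed at 1100, since the rule asks for 2 lists. Within a replicate number, which is a wider count, 2056 and 1377 were called in HP and not in LP, with a mean of 1716.5 (the replicate block). Those called in both LP and neither HP numbered 40 and 20 with q-values of at most 0.01 and 0.001, and 110 with a 50% overlap. They numbered 69 without HP replicate 1 and 90 without HP replicate 2, and without either LP library the rule fixes them at 62. Within a replicate number, 187 and 260 were called in LP and not in HP, with a mean of 223.5. First intron regions numbered 1456 when 3 lists were required, and 1970 to 3334 without 1 library. Genes with 5 or more of them numbered 112 at a q-value of at most 0.001, 98 with a 50% overlap, 39 when 3 lists were required, and 74 to 154 without 1 library. The difference in the ratio of region to promoter was above 0 in all 14 alternatives, and 0.05 to 0.36 with libraries left out. With the replicate block it is 0.21 by construction, the same as without. All these alternatives reuse the same libraries, in which the populations overlapped (exact permutation p = 0.667). Their number therefore adds no evidence for a difference. In the other alternatives run, the counts stayed within 1.5 times. A limma fit without both libraries of a replicate number could not be made, as no spread is left. With medians of 9 to 16 fragments a call, regions called in fewer than 4 lists were not compared in level.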

Other observations

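A few genes and regions went against the general pattern, and they were chosen after their values were seen. Of the 170 genes with 5 or more first intron regions, 3 had more calls in LP than in HP. They were Fry, with 3 and 5 calls in LP against 1 and 4 in HP, Ppfibp1, with 4 and 5 in LP against 4 and 4 in HP, and the DNA methyltransferase gene Dnmt3a, with 2 and 5 in LP against 2 and 4 in HP. In Fry, HP was below LP in both replicate sets. A Ppfibp1 region at chr6:146912868-146913784 passed by limma as higher in HP, with 0.610 and 1.04 in LP against 3.13 and 2.74 in HP. Its log2 ratio was 1.88 (limma adjusted p = 0.0406, and 0.0539 with the replicate block). Another Ppfibp1 region was called in both LP and neither HP.

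At the other end, Fam198b had 5 of 6 regions called in both HP and neither LP (30.5% of all first intron regions). St5 and Sik3, a kinase that acts downstream of cAMP, had 5 of 7 each. In St5 and Sik3, LP replicate 1 called none, LP replicate 2 called 2, and HP replicate 2 called all 7.

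Of the 408 first intron regions set against a promoter, 8 were above it in all 4 libraries, in Map6, Hivep2, Epha3 and Pde11a with 1 each and in Tmem267 and Def8 with 2 each. In Map6 the log2 ratio to the promoter was 1.54 and 0.51 in LP against 1.80 and 1.39 in HP. Both HP values lay below both LP values in 2 regions called in all 4 lists. In Hadhb, at chr5:30159652-30160885, they were 0.785 and 0.912 in LP against 0.610 and 0.702 in HP (log2 ratio -0.37), and in Tcf12 they were 0.523 and 0.586 in LP against 0.435 and 0.491 in HP (-0.26). Neither passed by limma.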
